A study of Mus musculus with 14 samples.

Results

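Fezf2 and Fst glutamatergic neurons are excitatory neurons of the lateral hypothalamic area, a region that controls feeding, arousal and reward, in which the transcription factor gene Fezf2 or the follistatin gene Fst was detected. They were found in Drop-seq data, in which single cells are captured in droplets with barcoded beads and each captured RNA molecule is counted once as a unique molecular identifier (UMI). The libraries came from tissue punches of 14 male wild-type C57BL/6J mice, 1 library per mouse, and the age of the mice was not among the labels. Both groups were of this strain and genotype and are named by their food alone: 7 mice had free access to a taste-matched control chow and 7 to a high fat diet, with no other treatment. The labels place 4 mice of each diet in sequencing pool 1 and 3 of each in pool 2, and the libraries held 147470 to 5611524 UMIs.

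A barcode was called glutamatergic when it held at least 1 UMI of Slc17a6, the vesicular glutamate transporter of most hypothalamic excitatory neurons, and more Slc17a6 than Gad1, Gad2 and Slc32a1 UMIs together, which mark GABAergic neurons. It was called a Fezf2/Fst neuron when it also held at least 2 UMIs of Fezf2 and Fst together, more of these than of Tcf7l2 and Rspo3, under 3 Trh UMIs and under 2 Otp and Sim1 UMIs. Of 28410 barcodes, 9891 had at least 1000 UMIs and at most 20% mitochondrially encoded UMIs and were kept. Of these 1678 were glutamatergic and 58 were Fezf2/Fst neurons, which is 3.46% of the glutamatergic barcodes (95% exact Clopper-Pearson interval 2.64 to 4.45%) and 0.586% of the kept barcodes. They came from 12 mice, with 21 cells from control and 37 from high fat diet mice, and 34 cells from pool 1 and 24 from pool 2. The other 1620 glutamatergic barcodes served as the comparison.

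Fezf2 encodes a zinc finger transcription factor known for patterning the forebrain and for specifying neurons that project out of the cerebral cortex. Fst encodes follistatin, a secreted protein that binds activins and keeps them from their receptors. Glutamatergic neurons of the lateral hypothalamic area are known to restrain feeding, and they comprise many kinds told apart by their transcription factors, peptides and receptors. Neuropeptides and neurotrophins leave such neurons in dense-core vesicles, whose cargo includes the granins, a family of acidic secretory proteins to which Scg2, Chga, Chgb and Vgf are usually counted. On GRCm38, Fezf2 lies on chromosome 14 (12342094 to 12348189, minus strand) and Fst on chromosome 13 (114452290 to 114458951, minus strand).

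The Fezf2/Fst neurons had a median of 6212.5 UMIs and 2897 genes, against a median of 4445 UMIs in the other glutamatergic barcodes. A threshold of 2 UMIs is reached more readily by deeper barcodes, and 32 of the 58 cells held exactly 2 UMIs of Fezf2 and Fst together. Fezf2 alone was seen in 27 cells, Fst alone in 19 and both in 12. No barcode sequence of the 58 occurred in another library, while 41 sequences did among all barcodes and 1 among the kept ones.

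The excitatory label of the cells and their low counts of GABAergic genes were set by the rule. Slc32a1 was not detected, and 11 cells held any UMI of a GABAergic gene. Beyond the rule, markers of neighbouring regions that a punch could include were mixed, some with no UMI and others seen in part of the cells. Slc17a7, the cortical vesicular glutamate transporter, was not detected, and none of the 7 subthalamic, parasubthalamic and mammillary markers was seen. Nr5a1, which defines the ventromedial nucleus, had no UMI either. Thalamic markers, of which the rule limits Tcf7l2, held 29 UMIs in 20 of the 58 cells, from 3 of 4 genes, and made up 0.00681% of UMIs against 0.0131% in the other glutamatergic neurons. Markers of cortex and hippocampus held 18 UMIs in 16 cells, all of Tbr1, 1 of the 5 genes, and made up 0.00422% against 0.00332%. Their part in the results was not tested. Single cells went against the label. One cell of control replicate 7 held 52236 UMIs, of which 3459 were of Hcrt, the hypocretin precursor gene, and 1586 of Scg2. It also held 13 Gad1 UMIs and none of Mab21l1, Samd3, Nxph4, Bdnf or Meis2. The single Fezf2/Fst cell of control replicate 2 held 27 Hcrt and 537 Scg2 UMIs and none of the first 4 of these genes. Scrublet called 1 of the cells it was run on a doublet, in high fat diet replicate 4, and it was not run on the cells of control replicate 7. The libraries of high fat diet replicate 1 and control replicates 1 and 2 were set apart as unlike the rest in both glia and neurons, which was not tested here. They held 2, 2 and 1 Fezf2/Fst neurons. None of these 3 mice and neither Hcrt-rich cell entered the gene test of diet.

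**Figure D1:**
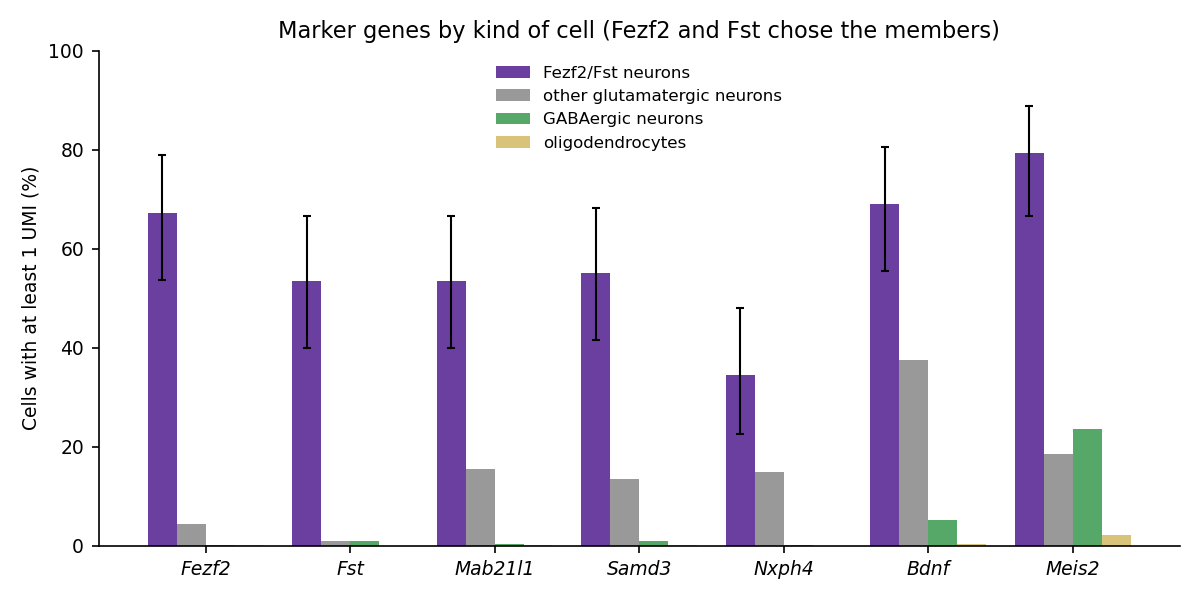
Percent of cells with at least 1 UMI of 7 genes (y axis) in 4 kinds of cell, over all mice, with exact 95% intervals on the Fezf2/Fst neurons. Fezf2 and Fst chose the cells, while Meis2 was seen in 79.3% of them and in 18.5% of the other glutamatergic neurons.

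Mab21l1, Samd3, Nxph4 and Bdnf were given with the cells as their markers, and each was seen in more Fezf2/Fst neurons than other glutamatergic neurons. These shares are descriptions with no test, since the cells were selected from the same tables with such values in view. Mab21l1, a gene needed for eye development, was detected in 53.4% of Fezf2/Fst neurons and 15.5% of other glutamatergic neurons. Samd3, which encodes a protein with a sterile alpha motif, was detected in 55.2% and 13.4%. Nxph4, which encodes a secreted ligand of neurexins, was detected in 34.5% and 14.8%. Bdnf, the neurotrophin that activates the receptor TrkB, was detected in 69.0% and 37.5%.

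These 4 genes were seen in few GABAergic neurons or oligodendrocytes. Both kinds were chosen to hold no Slc17a6 UMI, so their shares do not measure the level of free RNA in the droplets. In GABAergic neurons (median 3941 UMIs) Mab21l1 was seen in 0.345%, Samd3 in 0.848%, Nxph4 in 0.0628% and Bdnf in 5.12%. In oligodendrocytes (median 1468 UMIs) the shares were 0.151%, 0.0604%, 0% and 0.272%. When every barcode was thinned to 1000 UMIs, the shares in Fezf2/Fst neurons and in other glutamatergic neurons were 17.2% and 4.88% for Mab21l1 and 17.2% and 4.26% for Samd3. The thinned shares of Nxph4 were 8.62% and 3.70%, and those of Bdnf 19.0% and 13.1%, so the distance between the populations was smaller for Bdnf than the unthinned shares show. Bdnf and Nxph4 were also frequent in Trh glutamatergic neurons, at 55.7% and 24.4%. All 4 marker genes were seen together in 10 Fezf2/Fst neurons, 3 of them in 9, 2 in 24, 1 in 8 and none in 7.

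The threshold on Fezf2 and Fst did not coincide with a step in the other genes. Among glutamatergic barcodes that met the rest of the rule, 56 cells with 1 UMI of Fezf2 and Fst lay just outside, and Meis2 was seen in 71.4% of them, Samd3 in 50% and Bdnf in 50%. In the 32 cells just inside, with 2 UMIs, the shares were 75% for Meis2, 50% for Samd3 and 75% for Bdnf. In the 26 cells with 3 or more they were 84.6%, 61.5% and 61.5%. In the 1201 cells with none they were 19.5%, 14.6% and 33.0%.

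**Figure D2:**
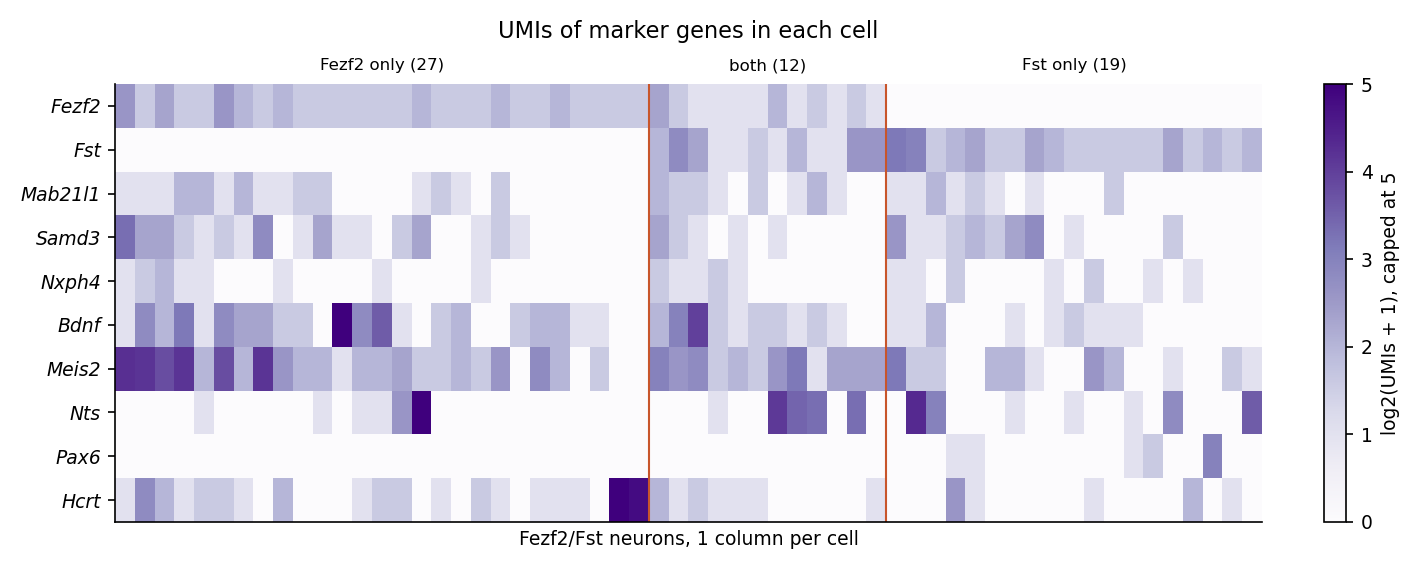
UMIs of 10 genes (rows, log2 of UMIs + 1, capped at 5) in each of the 58 Fezf2/Fst neurons (columns), ordered by whether Fezf2, both genes or Fst were seen. Meis2 was present in all 12 cells with both genes, Pax6 was seen only among the cells with Fst alone, and 2 columns have high Hcrt.

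Cells with Fezf2 alone, with both genes and with Fst alone differed in other genes too, although their depths also differed, with medians of 8642, 5519.5 and 4653 UMIs. Meis2 was seen in 85.2%, 100% and 57.9% of the 3 classes, and Bdnf in 77.8%, 83.3% and 47.4%. Cbln1, a secreted synapse organiser, was seen in 63.0% of cells with Fezf2 alone, 8.33% of those with both and 26.3% of those with Fst alone. By contrast Npnt, which encodes an extracellular matrix ligand of integrins, was seen in 0, 1 and 10 cells of the 3 classes. Pax6, a paired-box homeodomain factor, was seen in 5 of the 19 cells with Fst alone and in none of the others. Nts, the neurotensin precursor, was seen in 18 cells (6, 5 and 7 by class), and 10 of the 18 held 5 or more UMIs. Nts was also seen in 14.3% of other glutamatergic neurons and in 1.51% of oligodendrocytes. Cbln1, Npnt, Pax6 and Nts were picked after their values were seen.

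Levels were then compared per mouse, by summing the cells of each kind in the 5 mice that held at least 5 Fezf2/Fst neurons: control replicates 3 and 5 and high fat diet replicates 2, 3 and 4, with 43 of the 58 cells. Levels are given as CPM, the UMIs of a gene per 1e+06 UMIs of the summed cells. Of the genes at 50 CPM or more, 204 of 4005 (5.09%) were higher in Fezf2/Fst neurons in all 5 mice, by the mean in those cells. By the mean in the other glutamatergic neurons, 192 of 3939 (4.87%) were lower in all 5. Ratios are on the log2(CPM + 10) scale, which understates those of low genes, and they carry no test.

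Meis2, a homeodomain factor of the TALE class and not one of the markers, was with Nov the most raised gene outside the rule. Its level was 686.5 and 637.3 CPM in the Fezf2/Fst neurons of the control mice and 662.7, 576.2 and 594.6 CPM in those of the high fat diet mice. In the other glutamatergic neurons of the same mice it was 82.7 and 149.9 CPM, then 116.7, 149.1 and 270.2 CPM, so the populations did not overlap (median log2 ratio 2.02). The high level of Meis2 set these neurons apart from several, but not all, glutamatergic kinds: it was seen in 2.29% of Trh neurons, 0.488% of Otp or Sim1 neurons and 36.3% of Tcf7l2 or Rspo3 neurons. After thinning it was seen in 39.7% of Fezf2/Fst neurons and 11.4% of all other glutamatergic neurons.

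Among the other genes raised in all 5 mice, Rasgrp1, a diacylglycerol-activated exchange factor for Ras, had a median log2 ratio of 1.66. It rested on 17 UMIs in the Fezf2/Fst neurons and was 24.54 against 22.08 CPM in high fat diet replicate 2. Nov, a secreted matricellular protein, averaged 89.1 CPM in Fezf2/Fst neurons against 10.4 CPM in the others (2.25), from 20 UMIs in the former. Serpine2, a secreted serine protease inhibitor, averaged 451.4 against 156.9 CPM (1.21). Htr2c, the serotonin 2C receptor, averaged 128 against 60.4 CPM (0.89). Cadps, which primes dense-core vesicles for release, averaged 269.5 against 126.1 CPM. Usp13 (1.40, 26 UMIs), Arhgap6 (1.26, 20 UMIs), Agpat5 (1.12, 33 UMIs) and Fut9 (0.91, 110 UMIs) also rank among the 25 most raised genes. Slc17a6 itself was similar in both, at 1073.4 and 965.2 CPM.

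The marker genes were also higher per mouse with 1 exception, which is description only, since the cells were selected with such values in view. Samd3 averaged 170 CPM in Fezf2/Fst neurons against 45.9 CPM, Mab21l1 122 against 53.1 CPM and Bdnf 508.8 against 203.9 CPM, each higher in all 5 mice. The gap for Mab21l1 was small in high fat diet replicate 4, at 106.2 against 97.15 CPM. Nxph4 averaged 103.3 against 47.8 CPM and was higher in 4, being 35.2 against 42.7 CPM in control replicate 3.

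Of the activin and bone morphogenetic protein pathway, 38 genes listed and Fst among them, 5 reached 50 CPM. Raised in all 5 mice were Fstl5 (215.1 against 123.2 CPM) and Id2 (178.3 against 108.7 CPM). Fst was raised too, but it chose the cells, so it does not count for the list. Over all genes at 50 CPM in either population, 204 of 4348 (4.69%) were raised in all 5 mice. Acvr2a, an activin type 2 receptor, averaged 15.2 CPM in Fezf2/Fst neurons and 33.9 CPM in the others, from 4 UMIs in all 43 cells. Of 15 neurotrophin genes, 5 reached 50 CPM and 2 were raised in all 5 mice, Bdnf and Nrn1 (517 against 341.5 CPM), which encodes neuritin. The gene of the receptor of Bdnf, Ntrk2, was at 234.8 and 236.4 CPM. None of the 11 neurexophilin and neurexin genes at that level was raised in all 5.

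**Figure D3:**
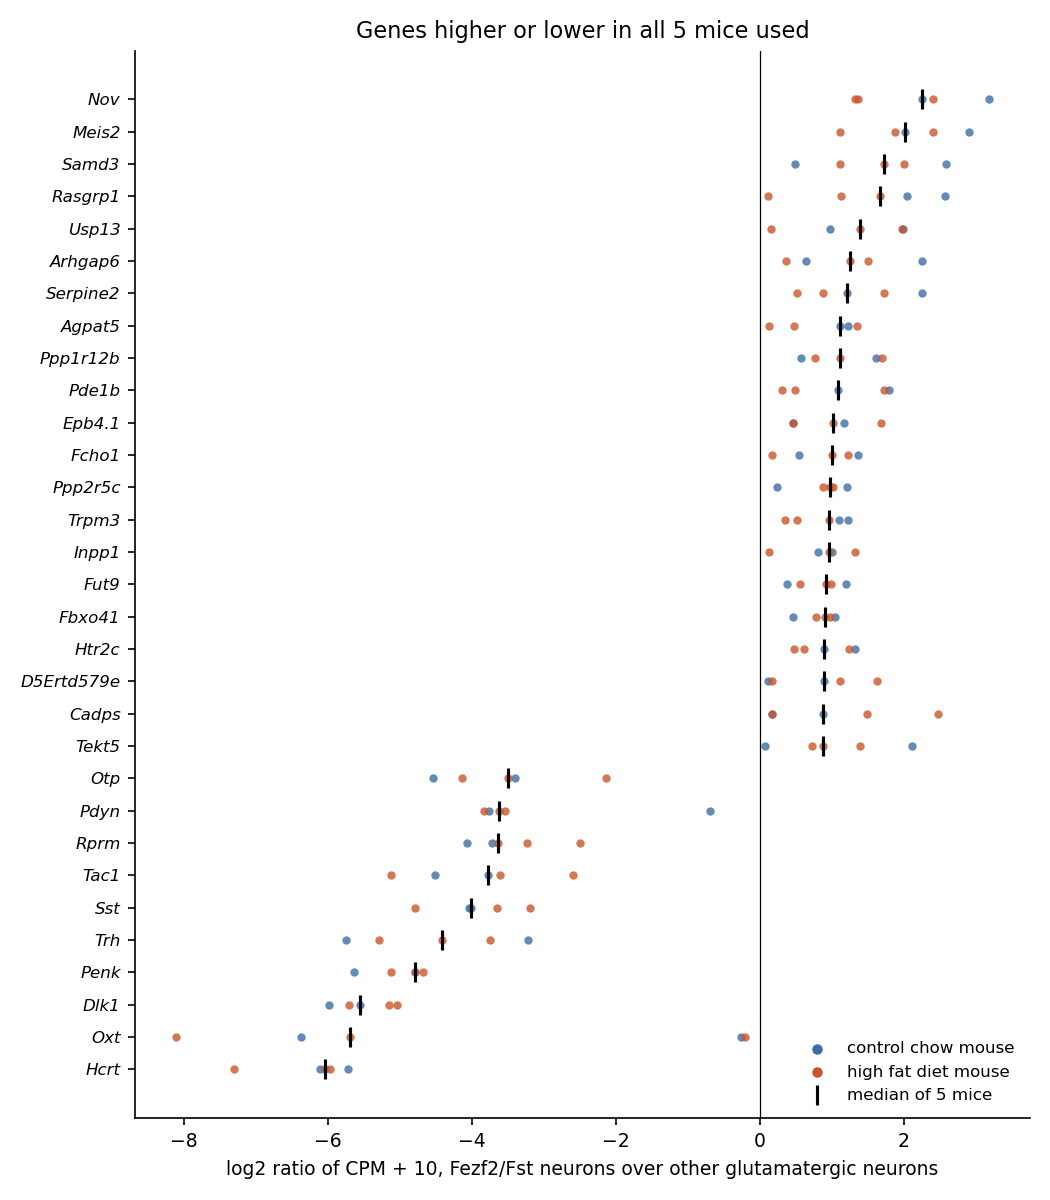
Log2 ratio of CPM + 10 between Fezf2/Fst neurons and other glutamatergic neurons (x axis) for 21 of the 23 genes most raised, Fezf2 and Fst aside, and the 10 most lowered in all 5 mice. Points are single mice coloured by diet, ticks are medians, and Nov (20 UMIs in Fezf2/Fst neurons) and Meis2 (165 UMIs) lead the raised genes.

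Neuropeptide genes were lower more often than those of any other pathway list looked at. Of 14 neuropeptide genes at 50 CPM in either population, 10 were lower in all 5 mice and none was higher. Over all genes at that level, 4.42% were lower in all 5. The count is description only, since a gene could enter through its level in the other neurons alone, as Penk did. Those neurons also include the Trh and the Otp or Sim1 kinds that the rule took out. Trh was fixed at a low level by the rule, whereas Penk, the enkephalin precursor, was not part of it and had no UMI in the 43 cells against 320.7 CPM in the others. Hcrt averaged 191.1 against 14807.4 CPM. Hcrt is among the most abundant RNAs of this tissue, and it had a UMI in 53.4% of the 58 cells, 36.9% of GABAergic neurons and 27.3% of oligodendrocytes, with at most 6 UMIs in the Fezf2/Fst neurons other than the Hcrt-rich pair. Dlk1, a membrane ligand related to the Notch ligands, had no UMI against 451.4 CPM. Cartpt, Pdyn, Tac1 and Sst were lower in all 5 mice as well. Pcsk2, a convertase that cleaves prohormones, averaged 86.1 against 243.9 CPM, lower in all 5.

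Of 55 peptide and metabolic hormone receptor genes listed, 38 were seen in a Fezf2/Fst neuron and 6 reached 50 CPM in either population. The receptors named next were seen in few cells at this depth. Lepr, the leptin receptor, had no UMI in the 58 cells, which allows a share of up to 6.16% of cells with a UMI (exact 95% interval). Mc4r, a melanocortin receptor, was seen in 1 cell, Npy1r in 4, and Hcrtr1 and Hcrtr2, the hypocretin receptors, in 7 each. Tbr1, a T-box transcription factor, was seen in 16 cells (27.6%, against 9.81% of other glutamatergic neurons), and Lhx9, a LIM homeodomain factor, in 13.

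Whether the diet changed how many of these neurons were recovered was asked in the 12 mice with at least 20 glutamatergic barcodes, 6 per diet. Among control mice the Fezf2/Fst neurons made up 0% at the lowest, 1.28% at the median and 6.77% at the highest of glutamatergic barcodes. Among high fat diet mice the values were 0.897%, 4.44% and 7.84%. The groups overlapped over most of their range. Single values rest on few cells: the highest control share is 9 of 133 barcodes in control replicate 3 (exact 95% interval 3.14 to 12.5%), and 0 of 25 in control replicate 6 allows up to 13.7% by the same interval.

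The mean share was 2.33% ± 2.59 (SD, n = 6) in control and 4.43% ± 2.31 (SD, n = 6) on the high fat diet, a difference of 2.10 percentage points that was within the spread between mice (two-sided exact permutation p = 0.1602, adjusted p = 0.2403 over 3 comparisons). As a share of all kept barcodes the means were 0.349% ± 0.403 and 0.751% ± 0.339 (SD, n = 6 each; exact permutation p = 0.09307, adjusted p = 0.2403). Within pool 1 the means of the glutamatergic share were 3.11% and 3.30% (exact permutation p = 1), and within pool 2 they were 1.56% and 5.57% (exact permutation p = 0.1, the smallest that 3 against 3 mice can give). As a share of kept barcodes the within-pool means were 0.494% and 0.689% in pool 1 (exact permutation p = 0.6) and 0.204% and 0.813% in pool 2 (exact permutation p = 0.2). Without the 3 mice that were set apart the difference was 2.28 points (exact permutation p = 0.1905). Without control replicate 3 the difference in the glutamatergic share was 2.98 points (exact permutation p = 0.04329), and with every barcode thinned to 1000 UMIs, which left 4 Fezf2/Fst neurons, it was -0.17 points. The median UMIs of the cells were 6159.5 ± 614.5 in 2 control and 5173.8 ± 1673.1 UMIs in the 3 on the high fat diet (exact permutation p = 0.6), a comparison in which 0.2 is the smallest p possible, so it cannot show a difference in depth.

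**Figure D4:**
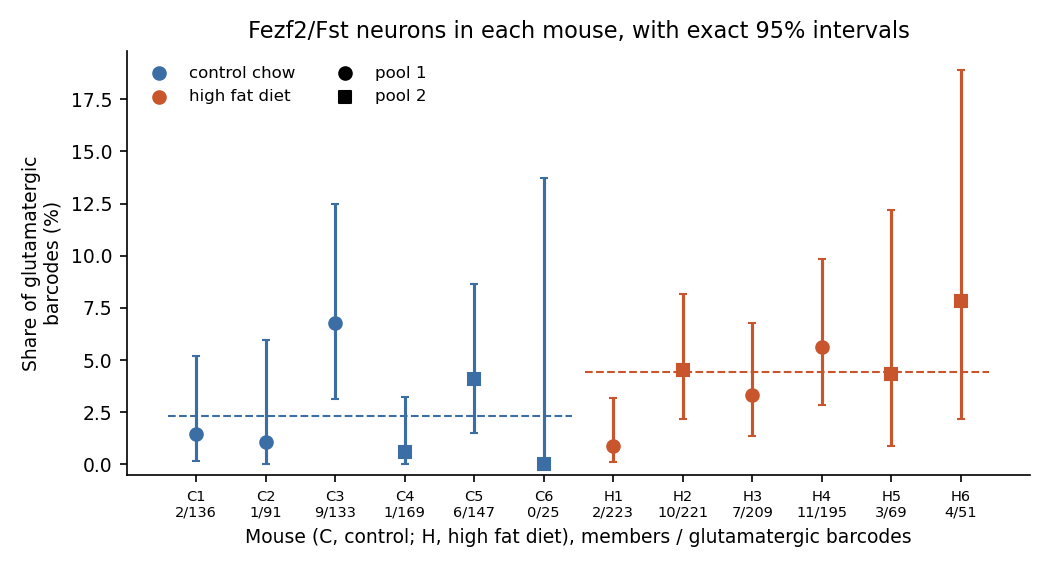
Share of glutamatergic barcodes that were Fezf2/Fst neurons (y axis, percent) in the 12 mice with at least 20 glutamatergic barcodes, with exact 95% intervals and dashed lines at the diet means of 2.33% and 4.43%. Circles are pool 1 and squares pool 2, and the counts behind each share are under the axis.

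Changes of gene level with diet within these neurons were tested on the sums per mouse in the same 5 mice, with the sequencing pool as a covariate (edgeR quasi-likelihood test, Benjamini-Hochberg adjustment over the 1258 genes tested). Each sum held 32949 to 81486 UMIs from 6 to 11 cells, and with 2 control mice the design is small. The test therefore leans on a variance shared across genes, and a small p does not rest on the spread of that gene between mice alone. At an adjusted p under 0.05, 4 genes passed, which is 0.318% of those tested, 3 lower (Scg2, Bdnf and mt-Rnr2) and 1 higher (Nnat) on the high fat diet. A further check counted genes whose 3 high fat diet values all lay below both control values, 7.95% of those tested, or all above, 10.7%. The median log2 fold change of all genes was 0.01. Summed markers of oligodendrocytes made up 0.0141% and 0.0243% of UMIs in the control mice and 0.0258%, 0.0175% and 0.187% in the high fat diet mice. Those of astrocytes were 0.0528% and 0.118%, then 0.124%, 0.0726% and 0.127%, and their part in the results was not tested.

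Scg2, which encodes secretogranin II, the precursor of the peptide secretoneurin, had the smallest p of the genes tested. Its level was 4489 and 3369 CPM in control replicates 3 and 5, and 1227, 1804 and 1741 CPM in high fat diet replicates 2, 3 and 4. All 3 high fat diet mice lay below both control mice, and the log2 fold change was -1.41 (SE 0.185, edgeR adjusted p = 3.71e-11). Hcrt, which was high in the cells with the most Scg2 outside these mice, was at 70.4 and 303.5 CPM in the control sums and 220.9, 275.6 and 84.9 CPM in the high fat diet sums, and the groups overlapped. In the mice with under 5 cells, Scg2 was at 1883 CPM in control replicate 1 and listed at 0 in control replicate 4, from 2 cells and 1 cell. It was at 2483, 1173 and 952.4 CPM in high fat diet replicates 1, 5 and 6. With these mice the diets overlapped. Control replicates 2 and 7 held the Hcrt-rich cells, and their Scg2 was at 48615 and 23364 CPM.

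The fall of Scg2 rested in part on 1 cell per control mouse. A single cell held 157 of the 255 Scg2 UMIs (61.6%) in control replicate 3 and 64 of 111 (57.7%) in control replicate 5. The top cells of high fat diet replicates 2, 3 and 4 held 53 of 100, 40 of 72 and 17 of 82. Without the top cell of each mouse, Scg2 was at 2082 and 1853 CPM against 724, 1061 and 1556 CPM. The groups still did not overlap, but the difference no longer passed (log2 fold change -0.94, edgeR adjusted p = 0.0613). The median cell had 859.7 and 2672 CPM in the control mice and 569.7, 1288.4 and 1807.9 CPM in the high fat diet mice, and these medians overlapped.

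**Figure D5:**
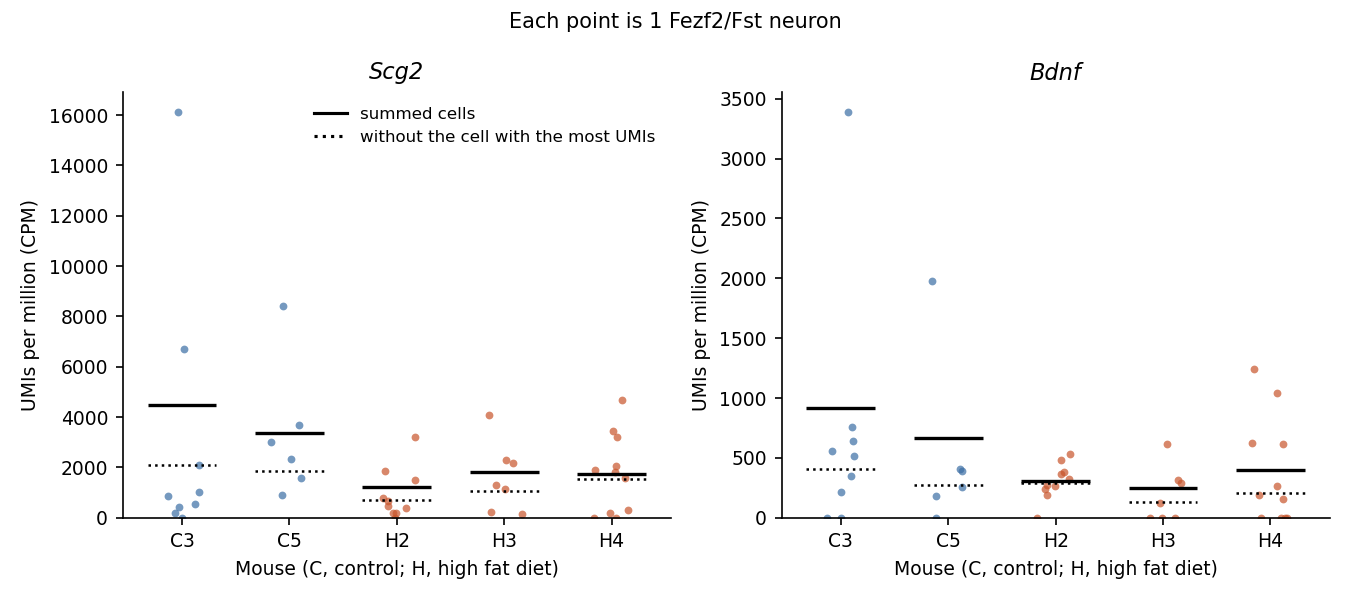
Scg2 (left) and Bdnf (right) in single Fezf2/Fst neurons (points, CPM) of 2 control and 3 high fat diet mice, with the level of the summed cells (solid line) and without the cell with the most UMIs (dotted line). In both control mice 1 cell stands far above the rest for each gene.

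Bdnf was lower as well, and most of its control UMIs lay in the same cells. It was at 915.3 and 667.7 CPM in the control mice and 306.8, 250.5 and 403.5 CPM in the high fat diet mice, with no overlap (log2 fold change -1.35, SE 0.320, edgeR adjusted p = 0.0108). The cell with the most Scg2 also held 33 of the 52 Bdnf UMIs of control replicate 3 and 15 of the 22 of control replicate 5. Those cells held 31 of the 40 UMIs and all 10 UMIs of Vgf, a granin-like precursor, in the 2 mice. Without the cells with the most Scg2, Bdnf had a log2 fold change of -0.27 (edgeR adjusted p = 0.999). Without the cells with the most Bdnf it was at 403.7 and 276 CPM against 292.7, 132.6 and 209.2 CPM, and the groups overlapped. Scg2 was at -0.91 (adjusted p = 0.0692) in that fit. Bdnf also missed the threshold when any one of the mice but high fat diet replicate 4 was left out. Bdnf lies on chromosome 2 (109674700 to 109727007, plus strand) and Scg2 on chromosome 1 (79434669 to 79440120, minus strand).

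Scg2, Bdnf and Vgf are known targets of the activity-dependent transcription factor CREB, and the promoter stretch of Scg2 is shown because it holds that factor's palindromic site, in capitals. The stretch of 30 bases is chr1:79440076-79440105 on the minus strand of GRCm38.p6, from the RefSeq promoter table.
Scg2: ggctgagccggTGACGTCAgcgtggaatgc
The site TGACGTCA, which reads the same on both strands, begins 68 bases before the RefSeq start of Scg2 and lies inside the longer Scg2 gene of GENCODE. Of 32851 RefSeq promoter windows of 300 bases (250 before the start to 50 after), 588 (1.79%) hold it. None of the 7 windows of Bdnf holds these letters, and neither does the window of Fezf2. A match describes the sequence and is not evidence of binding in these cells.

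Among the 16 genes of granins and prohormone processing, 11 were tested, 1 passed (Scg2) and 7 had a log2 fold change below 0, with a median of -0.36 against 0.01 over all genes. Of the 11, 4 had all high fat diet mice below both control mice, against 7.95% of all genes, and 1 all above, against 10.7%. Scg2 was known to be lower on the diet when the list was drawn up, so the list is not independent evidence. Chgb, which encodes chromogranin B, was at 1021 and 1184 CPM in control and 638.1, 751.5 and 488.4 CPM in high fat diet mice. It did not pass (log2 fold change -0.83, edgeR adjusted p = 0.406). Vgf was at 704.1 and 303.5 CPM against 98.2, 551.1 and 254.8 CPM (-1.07, edgeR adjusted p = 0.616). Chga was at -0.29, Pam, which amidates peptides, at -0.62, Ptprn at -0.65 and Pcsk1n at -0.36, while Cpe, a carboxypeptidase that trims prohormones, was at 0.25, Cadps at 0.36, Scg5 at 0.19 and Scg3 at 0.06.

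Nnat, which encodes neuronatin, a small protein of the endoplasmic reticulum, was the gene that rose. It was at 264 and 151.7 CPM in control mice and 319.1, 952 and 806.9 CPM in high fat diet mice, all 3 above both controls (log2 fold change 1.51, SE 0.389, edgeR adjusted p = 0.0333). High fat diet replicate 2 lay close to control replicate 3. The call held in 5 of 18 alternatives with a test, and without single mice it held in 1 of 5 (without high fat diet replicate 4). It was lost with DESeq2 (1.47, adjusted p = 0.9995) and without control replicate 3 (1.07, edgeR adjusted p = 0.9816). With all mice that held at least 2 Fezf2/Fst neurons the log2 fold change of Nnat was -0.61, and 1.63 when the Hcrt-rich barcodes were left out of that fit, neither of which passed. The Hcrt-rich cell of control replicate 7 held 219 of that mouse's 238 Nnat UMIs. The mitochondrial 16S ribosomal RNA mt-Rnr2 fell by 1.27 on the log2 scale (edgeR adjusted p = 6.777e-09), from 2658 and 6586 CPM to 2283, 1328 and 1359 CPM. In the mice with fewer cells mt-Rnr2 was not lower on the high fat diet, at 3002, 13092 and 3717 CPM in high fat diet replicates 1, 5 and 6 against 2680, 7423, 1882 and 1186 CPM in control replicates 1, 2, 4 and 7. With all mice that held at least 2 Fezf2/Fst neurons the log2 fold change of mt-Rnr2 was -0.22 and did not pass. Another mitochondrial ribosomal RNA, mt-Rnr1, was at -0.61 and did not pass (edgeR adjusted p = 0.9965). The 7 mitochondrially encoded protein genes tested were all below 0 with a median of -0.09, and none passed.

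Of the 6 marker genes of these neurons, Bdnf passed, Fezf2 and Fst were tested as well, and Mab21l1, Samd3 and Nxph4 had too few counts. Every cell had to hold UMIs of Fezf2 or Fst, so their log2 fold changes of 0.26 and -0.27 are bound by the rule and say nothing of a change. Meis2 was at -0.14 and did not pass (edgeR adjusted p = 0.9965), and the receptor gene Ntrk2 was at 0.05 and Nrn1 at 0.14. Among the genes next by p that did not pass, Ypel3 (1.12), Sncb (0.97), Malat1 (0.52) and Elavl4 (1.30) were above 0, and Gria2 (-0.80), an AMPA receptor subunit, was below. Malat1 passed when control replicate 3 was left out (1.39, edgeR adjusted p = 7.337e-06). Of 16 synaptic vesicle genes tested, 8 were above and 8 below 0. Of 9 glucose and lactate genes, 7 were above 0, and none of either list passed. No immediate early gene had enough counts to be tested.

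The other glutamatergic neurons of the same 5 mice did not show the fall of Scg2. Their Scg2 was at 4041 and 7105 CPM in control and 5835, 4557 and 4334 CPM in high fat diet mice (log2 fold change -0.02, edgeR adjusted p = 1), and 2 of 8803 genes (0.0227%) passed there, mt-Rnr2 and Ucn3. In these neurons Bdnf was at -0.10 and Nnat at 0.16. The mt-Rnr2 values moved together in both populations, with 2344 and 8982 CPM against 2233, 1069 and 1352 CPM in the others (log2 fold change -1.39, edgeR adjusted p = 0.0497).

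The difference between the diet effects was tested directly, with each mouse as a block. Scg2 passed alone of 7830 genes (0.0128%), its fall being deeper by 1.27 on the log2 scale in Fezf2/Fst neurons (-1.27, SE 0.242, edgeR adjusted p = 0.0113). Without the cell with the most Scg2 of each mouse, the difference was -0.75 and did not pass (edgeR adjusted p = 1). Leaving out single mice moved it between -0.42 (without control replicate 3, adjusted p = 0.934) and -1.86 (without control replicate 5, adjusted p = 1.43e-08), and it also missed the threshold without high fat diet replicate 2 or 3. In the fit of all mice with at least 2 cells of both kinds it was -1.71 and did not pass (edgeR adjusted p = 1). The next genes by p did not pass, including Nts (-1.59, adjusted p = 0.344), Nnat (1.34, adjusted p = 0.504) and Bdnf (-1.22, adjusted p = 0.861). The difference for mt-Rnr2 was 0.24 (adjusted p = 1).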

How the data were processed

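Raw UMI counts of genes by barcodes, 1 table per mouse, are used as the authors deposited them, with no normalization. The submitters' processing notes name STAR 2.4.2a, bcl2fastq 2.18.0.12, Picard 2.2.4 and the build mm10 (GRCm38). How UMIs were counted, with which annotation and strand rule, and which barcodes were written is not given in the sources used here, so genes that overlap on opposite strands or have close copies are less certain. The members and gene lists were chosen with earlier results of these data known. Barcodes were kept at 1000 UMIs or more and at most 20% mitochondrial UMIs, and no doublets were removed in the main analysis (Scrublet, in scanpy 1.11.5, called 91 of 9606 barcodes, 0.947%).

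The mouse was the replicate, numbered in listing order, so numbers pair no mice. Permutation p-values measure the spread between mice. The edgeR p-values use a variance estimate shared across genes, so they do not measure the spread of a single gene between mice alone. Counts were summed per mouse and tested in R 4.3.3 with edgeR 4.0.16 (TMM, filterByExpr, robust quasi-likelihood fit, sequencing pool as covariate, threshold 0.05). Limma 3.58.1 and DESeq2 1.42.0 were alternatives. The planned minimum of 10 cells per mouse left too few mice, so the planned fallback of 5 was used there and for the comparison with other glutamatergic neurons. Median UMIs were compared on the planned log10 scale, and their difference is given on the log2 scale. Thinning drew 1000 UMIs per barcode. Intervals and limits at 0 are exact 95% Clopper-Pearson bounds and cover counting error only.

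Named genes were those that passed for diet, the 5 smallest p-values in each direction, Scg2, the 6 markers, and the granin, activin, neurotrophin and neurexophilin lists. For the comparison of populations they were the 25 most raised and 10 most lowered genes at 50 CPM or more in the same direction in every mouse. For the difference of diet effects they were the 5 smallest p-values in each direction. Genes with fitted values far from 0 because 1 population held no counts are not given. Some genes that the rule names are not reported here. Positions are from GENCODE M21 and promoters from RefSeq, where 4 of 8 genes looked for were found. The gene tests were tested on simulated data. Python 3.11.15, numpy 2.4.6, scipy 1.17.1 and pandas 2.3.3 were used.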

Additional observations from a re-analysis of the deposited data

Results flagged for a closer look

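Each of 3 values stood out by a fixed rule. Within the 6 control mice that held Fezf2/Fst neurons, the median UMIs per cell of control replicate 7, 35846.5 from 2 cells, lay far from the others, since 1 of the 2 is the Hcrt-rich barcode of 52236 UMIs. Within the mice looked at for Nxph4, control replicate 5 stood apart at 182.1 CPM. Such gaps were looked for in 22 groups of values and found in 2, and chance alone gives about 1 in 20. The diet effect on Scg2 differed between Fezf2/Fst neurons and other glutamatergic neurons by -1.27 on the log2 scale in the test of the difference itself, a value that falls to -0.75 without 1 cell per mouse.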

How the results depend on the processing

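No paired analysis was possible because the replicate numbers follow listing order and pair no mice. For the share of glutamatergic barcodes, the difference was -0.1735 points with every barcode thinned to 1000 UMIs, and leaving out single mice gave 1.42 to 2.98 points (2.98 without control replicate 3). For the share of kept barcodes, it was 0.752 points (exact permutation p = 0.0368) at a minimum of 2000 UMIs, -0.006676 after thinning, and 0.325 to 0.548 points without single mice, with an unadjusted p under 0.05 without control replicate 3 (p = 0.02165) or high fat diet replicate 1 (p = 0.04762; both exact permutation). The log2 difference in median UMIs was 0.09247 in pool 2 alone, with 1 mouse per diet and no test.

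Against 4 genes in Fezf2/Fst neurons (52 at an unadjusted p under 0.05), DESeq2 gave 2 and no filter on low counts gave 2. Mice with at least 2 such neurons gave 0 (53 unadjusted, edgeR), and mice with at least 1 gave 0 (35 unadjusted, edgeR). At least 2 without the Hcrt-rich barcodes gave 1, and at least 2 without the 3 mice that were set apart gave 0 (73 unadjusted, edgeR). Without the cell with the most Scg2 or the most Bdnf of each mouse, 1 gene passed in each fit, mt-Rnr2. Leaving out single mice gave 2 to 4. Nnat turned to -0.61, -0.53 and -0.48 in the fits of at least 2, at least 1, and at least 2 without the 3 mice, and was 1.63 in that of at least 2 without the Hcrt-rich barcodes, passing in none of the 4. Scg2 kept its direction in 20 of 20 alternatives and passed in 13 of the 18 with a test. In the other glutamatergic neurons, against 2 genes, DESeq2 gave 1 and leaving out single mice 1 to 27. For the difference of diet effects, against 1 gene, limma voom gave 3, the fit without the cell with the most Scg2 gave 0 (232 unadjusted, edgeR), mice with at least 2 cells of both kinds gave 2 (both higher, Scg2 not among them), and leaving out single mice 0 to 2. Gates of at least 3 UMIs or of both genes left too few mice for a gene test. The causes of these moves were not tested beyond the smaller samples named. The Hcrt, thinning, cell-number and top-cell alternatives were chosen after seeing the data.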
